A study of Mus musculus with 14 samples.

Results

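Regenerative and fetal-like epithelial genes were followed across mouse intestinal tissue, Apc Min/+ adenomas and a colon cancer cell line. The genes were Ly6a, Anxa1, Clu, Spp1, Ctgf, Cyr61, Ankrd1, Il33 and Msln, 9 of the 36161 gene names on the array, and they were taken by name. They were read by 10 of 55681 non-control probes, because Anxa1 had a second probe. The members and the related lists below were chosen with earlier results of these data known. Counts of called genes therefore describe them and do not test them as sets. Whole-tissue RNA was hybridised in 1 colour to 14 arrays in 5 groups. Small intestine (3 arrays) and colon (3 arrays) came from C57BL/6J mice by their labels. For small intestine the study's methods name adult wild-type animals. For colon they name Apc Min/+ mice in one passage and healthy mice in another, so the genotype of the colon arrays is not certain. Macroscopic adenomas (3 arrays) and the tissue adjacent to adenoma (2 arrays) came from APCmin/+ mice, which carry a germline truncating mutation of Apc and were in the same C57BL/6J background, with no age stated. CT26 (3 arrays) is a chemically induced colon carcinoma line of BALB/c origin obtained from a cell repository, so line, strain and culture cannot be told apart in its comparisons. By the study's sample list the adenoma and adjacent pieces came from a single Apc Min/+ mouse. Against small intestine, tumour and animal therefore cannot be told apart. In that list 1 colon sample stood under an Apc Min/+ mouse, although its label gives C57BL/6J. No label gives separate cultures of CT26, and p-values measure the spread between these arrays only.

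These genes are known from intestinal epithelium that is repairing damage and from the fetal gut, where absorptive and classical stem cell programmes are low. After injury, the transcriptional co-activators YAP and TAZ enter the nucleus, bind TEAD factors on DNA and switch on a set of targets that includes Ctgf, Cyr61 and Ankrd1. Ly6a (Sca-1), Anxa1 and Clu mark the epithelial cells in that state, and Il33, Spp1 and Msln are further genes described with wound repair, stroma or carcinoma. In whole tissue, several of them are also made by fibroblasts, endothelium, mesothelium or immune cells. A lower level in tissue RNA can mean fewer cells of a type or less RNA per cell, and the 2 cannot be told apart.

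Values are scaled log2 signals: the log2 of the scanner's processed signal minus the 75th percentile of that array, so 0 is the level of a bright probe and each unit is a doubling. Levels were compared between groups for the same probe and not between genes. Between 46.85% and 58.21% of probes were well above background per array, the lowest share being on the array labelled colon replicate 3. That array stood apart from its group: colon replicates 1 and 2 correlated at r = 0.979 with each other and at 0.939 and 0.937 with replicate 3, which correlated at 0.96 to 0.966 with the small intestine arrays. The median of 10 small intestine enterocyte markers was 5.05 on it, against -2.66 and -2.26 on the other colon arrays and 5.78 to 8.81 in small intestine. Member differences and list counts that rest on colon are therefore given with and without it, and values of single list genes with all arrays. All 8 epithelial markers were above background on every tissue array, but only 1 to 3 of 8 on the CT26 arrays, with a median of -6.75 to -6.43 there against 5.77 to 7.37 in tissue. The name epithelial is thus not borne out by these markers in CT26. No member probe was saturated on any array.

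**Figure D1:**
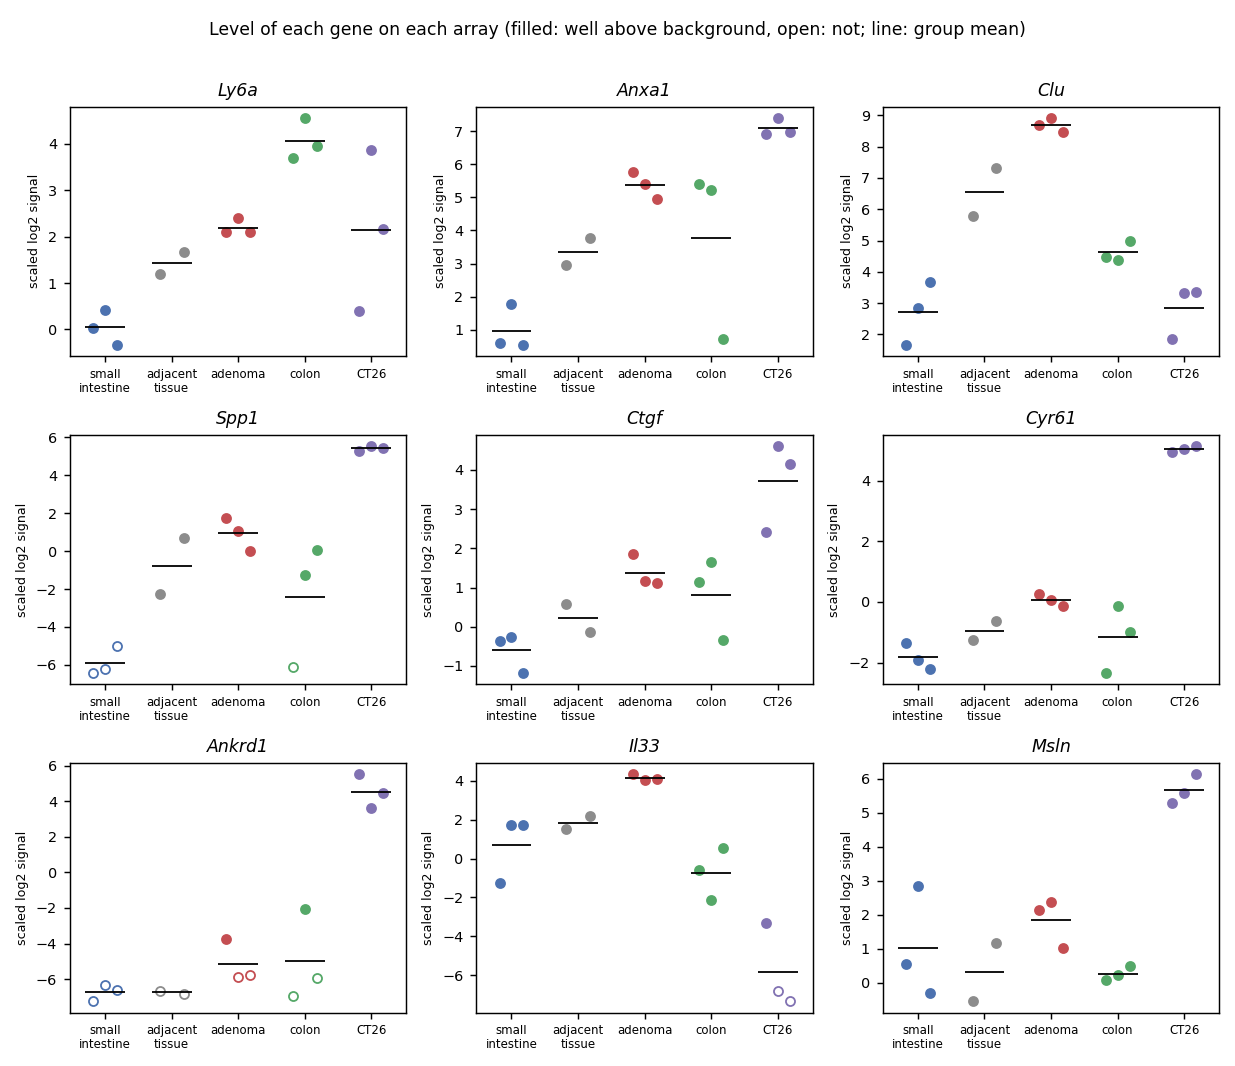
Scaled log2 signal (y axis) of each gene in the 5 groups (x axis), with 1 point per array, filled where the probe was well above background and open where it was not, and a line at the group mean. Clu and Il33 sit highest in adenoma, Ly6a in colon, and the other genes in CT26, and the colon replicate 3 point for Anxa1 (0.71) lies with small intestine.

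In the order of the 5 groups, CT26 stood above every other array for Anxa1, Spp1, Ctgf, Cyr61, Ankrd1 and Msln, and adenoma did so for Clu and Il33. Adenoma came next for Anxa1, Spp1, Ctgf, Cyr61 and Msln. It overlapped the group after it for these genes except Cyr61, where its lowest array was 0.48 above the adjacent tissue. Small intestine was lowest for Ly6a, Anxa1, Clu, Spp1, Ctgf and Cyr61, and overlapped its neighbour for Clu (CT26), Spp1 and Cyr61 (colon).

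In adenoma, 7 of the 9 genes were higher than in wild-type small intestine, Msln was not called and Ankrd1 could not be tested. A gene was called at an absolute log2 fold change of at least 1.2 and an adjusted p of at most 0.01, from limma over all probes that were well above background throughout at least 1 of the compared groups. Of 29539 probes tested, 10.9% were called higher and 10.9% lower. Of the 8 members that passed the filter, 7 were called higher and 0 lower. The members were chosen with earlier results of these data known, so this count is not a test against those shares. Over all 9, the median log2 fold change was 2.15, against -0.15 over all probes tested. Spp1 passed the filter only through the adenoma arrays, where it was high, so the count over tested members includes a gene that had to differ.

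Clu encodes clusterin, a secreted chaperone whose expression marks revival stem cells after crypt damage. Its level was 1.67, 2.84 and 3.68 in small intestine, 5.77 and 7.33 in adjacent tissue, and 8.68, 8.92 and 8.48 in adenoma. The 3 groups did not overlap and stepped upwards from normal to adjacent to tumour tissue. The adenoma difference from small intestine was 5.97 on the log2 scale, or 62.5-fold (SE 0.47, adjusted p = 0.00018). In colon the level was 4.49, 4.38 and 4.99, and in CT26 1.85, 3.33 and 3.37, so CT26 overlapped small intestine.

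Spp1 encodes osteopontin, a secreted matrix phosphoprotein that binds integrins and CD44 and is also made by macrophages. On the small intestine arrays it read -6.43, -6.2 and -5.02, not well above background on any of them. Adjacent tissue read -2.24 and 0.69, and adenoma 1.73, 1.07 and 0.01, all above background. Adenoma was at least 44.5-fold higher than small intestine (adjusted p = 0.000161), a bound set against the lowest signals well above background on the small intestine arrays. The measured group means were 0.94 and -5.89. The bound holds on this scale only, since the difference was 4 in the authors' normalized table and 3.78 with normexp background, called in both (adjusted p = 0.000243 and 9.87e-05), against 6.83 here.

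Il33 encodes interleukin-33, a nuclear alarmin released from damaged epithelial and stromal cells that signals through the receptor encoded by Il1rl1. The adenoma arrays were close together at 4.33, 4.05 and 4.1, while small intestine spread from -1.27 to 1.72 and 1.7. All adenoma values were above every other array. The difference from small intestine was 3.44, 10.9-fold (SE 0.77, adjusted p = 0.00932), just inside the threshold. It was not kept with small intestine replicate 2 or 3 left out (adjusted p = 0.0124 and 0.0112), nor with adenoma replicate 1, 2 or 3 left out (0.034, 0.0323 and 0.0292). Without small intestine replicate 1, the lowest array, the difference was 2.45 (adjusted p = 0.000222). The call was also lost with the slide as a block (0.0171) and with no filter on dim probes (0.0191).

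Ly6a encodes Sca-1, a GPI-anchored surface protein used as a marker of regenerating and fetal-like crypt cells and also present on endothelium and lymphocytes. Small intestine read 0.04, 0.42 and -0.33, adjacent tissue 1.2 and 1.67, and adenoma 2.09, 2.4 and 2.09. These groups did not overlap either, and adenoma exceeded small intestine by 2.15, 4.43-fold (SE 0.23, adjusted p = 0.000516). Colon had the highest mean, with arrays at 3.7, 4.56 and 3.95, and its range met that of CT26.

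Anxa1 encodes annexin A1, a calcium-dependent phospholipid-binding protein that acts in the resolution of inflammation through formyl peptide receptors. It read 0.6, 1.76 and 0.54 in small intestine, 2.96 and 3.76 in adjacent tissue and 5.77, 5.41 and 4.94 in adenoma. Adenoma was higher by 4.4, 21.2-fold (SE 0.38, adjusted p = 0.000238). The second probe, at another place in the transcript, gave 4.62 (SE 0.27, adjusted p = 9.15e-05).

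Msln encodes mesothelin, a surface glycoprotein of mesothelial cells that many carcinomas express. Small intestine read 0.55, 2.83 and -0.32, and adenoma 2.12, 2.38 and 1.02, so the groups overlapped. The difference of 0.82 had a 95% interval of -1.04 to 2.68 (adjusted p = 0.407). Mesothelium markers were lower in adenoma: the median of 6 such markers was -3.64 to -1.26 in small intestine and -6.98 to -6.33 in adenoma, with 4 of 6 called lower. Their part in the Msln values was not tested.

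Ctgf (now Ccn2) and Cyr61 (now Ccn1) encode secreted matricellular proteins of the same CCN family and are the most used readouts of YAP and TAZ activity. Ctgf read -0.36, -0.26 and -1.18 in small intestine and 1.86, 1.16 and 1.12 in adenoma, a difference of 1.98 (3.94-fold, SE 0.32, adjusted p = 0.00258). The call was lost at an adjusted p of 0.0102 without adenoma replicate 1 and of 0.0107 without adenoma replicate 2. Cyr61 read -1.36, -1.9 and -2.22 in small intestine and 0.27, 0.05 and -0.14 in adenoma, a difference of 1.89 (3.7-fold, SE 0.25, adjusted p = 0.00126). Adjacent tissue lay between them without overlap for both genes, at -1.26 and -0.62 for Cyr61 and at 0.58 and -0.13 for Ctgf.

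Ankrd1 encodes a nuclear ankyrin repeat protein of stretched muscle and is the third of these YAP and TAZ targets here. It was not well above background on any small intestine or adjacent array. In adenoma it was above background on replicate 1 only, at -3.72, against -5.89 and -5.77 on the others. It failed the filter on dim probes in that comparison, and no fold is given against small intestine.

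Among the members named as YAP and TAZ targets, Cyr61 and Ankrd1 had the highest correlation over the arrays, although Ankrd1 was mostly not above background outside CT26. Stretches upstream of their transcription starts are given to show where the core TEAD motif lies. They come from RefSeq (GRCm38.p6) and run 5′ to 3′ on the strand of the gene, with matches to GGAATG or its reverse complement CATTCC in capitals. Both genes lie on the minus strand, Cyr61 at chr3:145649986-145650235 and Ankrd1 at chr19:36119845-36120094.
Cyr61: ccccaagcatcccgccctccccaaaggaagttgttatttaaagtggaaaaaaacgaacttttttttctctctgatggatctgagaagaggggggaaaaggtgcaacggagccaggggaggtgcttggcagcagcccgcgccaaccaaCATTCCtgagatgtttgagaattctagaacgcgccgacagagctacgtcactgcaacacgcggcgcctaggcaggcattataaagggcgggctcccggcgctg
Ankrd1: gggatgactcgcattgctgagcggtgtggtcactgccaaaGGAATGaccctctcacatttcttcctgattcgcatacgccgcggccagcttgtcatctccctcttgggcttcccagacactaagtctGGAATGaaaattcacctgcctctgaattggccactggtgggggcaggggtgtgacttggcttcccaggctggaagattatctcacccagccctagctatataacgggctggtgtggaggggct
The Cyr61 stretch held 1 match, which begins 103 bases before the start site, and the Ankrd1 stretch held 2, which begin 210 and 123 bases before it. Entries were held for 5 of the 9 genes, with 7 start sites, and none for Ly6a, Clu, Ctgf and Msln. The 250-base stretches of Anxa1 and of both Il33 starts held 1 match each, and those of both Spp1 starts held 0. The motif occurs in 12.6% of all 32851 RefSeq stretches of that length. The AP-1 core TGANTCA, read on both strands, can overlap the TEAD motif where GGAATG is followed by A. It was in 0 of the 7 stretches and in 6.75% of all. A match describes the letters and is not a measured binding site.

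Adenoma was next compared with the tissue adjacent to it, which by the study's sample list came from the same mouse. The arrays are then pieces of that animal and not separate animals. All 9 genes had a higher mean in adenoma, by 0.76 to 2.31, Ankrd1 with 1 array above background, and 1 of 8 tested was called. Over all 29734 probes, 2.27% were called higher and 1.71% lower, and the median difference was -0.05 against 1.6 over the members. This comparison shares the adenoma arrays with the last, so the pair is not independent.

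The called gene was Il33, at 1.5 and 2.2 in adjacent tissue, with a difference of 2.31, or 4.97-fold (SE 0.25, adjusted p = 0.00593). Its call was lost without adjacent replicate 1 (adjusted p = 0.0113) and without adenoma replicate 1, 2 or 3 (0.0256, 0.0422 and 0.0267), with differences of 1.96 to 2.37. It was lost with the slide as a block too (2.35, adjusted p = 0.014). The Anxa1 probes fell on either side of the threshold, the brighter at 2.01 (SE 0.34, adjusted p = 0.0165) and the second at 2.13 (SE 0.29, adjusted p = 0.00928). Clu differed by 2.15 (SE 0.46, adjusted p = 0.029), and by 2.93 with adjacent replicate 2 left out, which was called (adjusted p = 0.00363). Ly6a (0.76, adjusted p = 0.0541), Ctgf (1.15, adjusted p = 0.0577) and Cyr61 (1, adjusted p = 0.0421) did not pass. Spp1 differed by 1.71 (adjusted p = 0.229) and Msln by 1.54 (adjusted p = 0.126), both with overlapping groups. Each rested on the adjacent arrays: without adjacent replicate 1 the differences were 0.25 and 0.69, and without adjacent replicate 2 they were 3.18 and 2.39.

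Adjacent tissue itself stood between adenoma and wild-type small intestine for most members, without a call. By group means 7 of the 9 genes were above small intestine. No member passed, and 0.00694% of 28833 probes were called in either direction. At an unadjusted p under 0.05 there were 5 members and 8748 probes. The members nearest to a call were Spp1, at least 13.6-fold higher in adjacent tissue (adjusted p = 0.0518) because no small intestine array was above background, Clu at 3.82 (SE 0.7, adjusted p = 0.0548), Anxa1 at 2.39 (SE 0.46, adjusted p = 0.0573) and Ly6a at 1.39 (SE 0.3, adjusted p = 0.065). The Spp1 bound holds on this scale only. Its difference was 5.11 here and 2.38 to 5.54 under the other settings with no array left out. Ankrd1 was below background in both groups, and Msln was lower by its means, at 0.3 against 1.02. Endothelial markers had a median of -0.82 to -0.22 in adjacent tissue against -2.86 to -2.33 in small intestine, and mesothelium markers -6.61 to -4.91 against -3.64 to -1.26, with 0 called in either list, and their part was not tested.

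**Figure D2:**
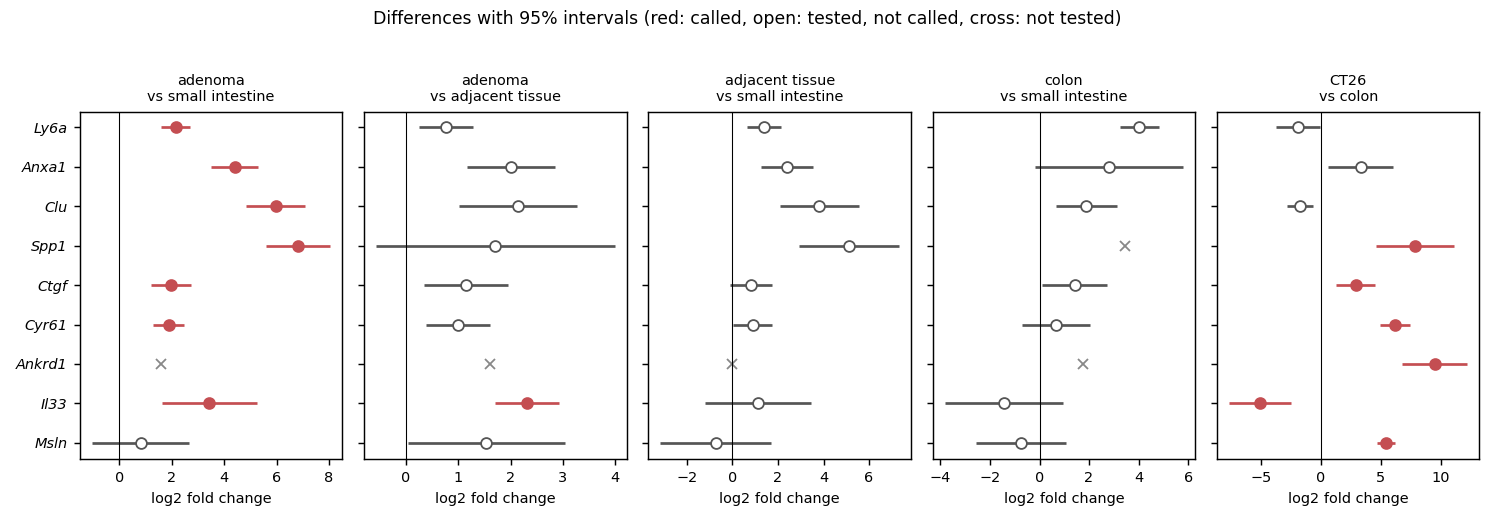
Log2 fold change (x axis, scale set per panel) of each gene in the 5 comparisons, with points at the limma estimate and lines for the 95% interval. Red points were called, open points were tested and not called, and crosses mark genes that failed the filter on dim probes, which have no interval. All 7 red points of the first panel lie above 0, and Il33 turns from above 0 in adenoma to -5.09 in CT26.

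Between the normal tissues, Ly6a and Anxa1 differed most among the members tested, and the colon array that stood apart decided the calls. Over all arrays 0 of 7 tested members were called in colon against small intestine, where 0.00733% of 27302 probes were. At an unadjusted p under 0.05 there were 3 members and 6414 probes. Ly6a was higher by 4.02 (SE 0.33, adjusted p = 0.0224). The median of 4 B cell markers was -0.39 to 2.56 in colon and -3.4 to -2.97 in small intestine, 0 called over all arrays, and their part in Ly6a was not tested. Without colon replicate 3, 2 members were called higher, where 3.28% of 30542 probes were: Ly6a by 4.08 (17-fold, SE 0.36, adjusted p = 0.00176) and Anxa1 by 4.35 (20.5-fold, SE 0.42, adjusted p = 0.0022). With that array in, Anxa1 read 5.42, 5.23 and 0.71 in colon and its difference of 2.82 had an adjusted p of 0.232. Ctgf also read lowest on that array, at -0.33 against 1.15 and 1.64. Spp1 read highest on it, at 0.08, against -6.14, not above background, and -1.26. Clu was higher in colon by 1.89 (adjusted p = 0.113), and Il33 (-1.45) and Msln (-0.76) had lower means with overlapping groups.

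CT26, which stands in the study for a late stage of colorectal cancer, had a partly different set of these genes high. Spp1, Cyr61 and Ctgf were called higher both here and in adenoma against small intestine. Against colon, 6 of 9 tested members were called, 5 higher and 1 lower, where 21.5% of 29398 probes were higher and 14.9% lower. The genes called higher were Ankrd1, Spp1, Cyr61, Msln and Ctgf, while Il33 fell. The median over the members was 3.32, against 0.37 over all probes tested. Ankrd1, Spp1 and Il33 were above background on every array only in the group where they were high, so 3 of the 6 calls are of genes that had to differ to be tested. Where probes had to be above background in both groups, 3 members were called, Ctgf, Cyr61 and Msln.

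Ankrd1 read 5.51, 3.61 and 4.46 in CT26, against -6.94, -2.07 and -5.91 in colon, where only replicate 2 was above background. Its difference of 9.5 (SE 1.18, adjusted p = 0.000436) therefore rests on a dim group, and it was 9.03 without colon replicate 3. Cyr61 read 4.94, 5.04 and 5.14 in CT26 and -2.34, -0.12 and -1 in colon, 6.19 or 73.1-fold apart (SE 0.54, adjusted p = 7.14e-05), and 6.27 without colon replicate 3. Ctgf read 2.42, 4.61 and 4.16 in CT26, lowest on replicate 1, and its difference of 2.91 (SE 0.7, adjusted p = 0.00963) was the least secure of the 3 targets. It was not called with any of the colon arrays left out (adjusted p = 0.0207, 0.0109 and 0.0171 without replicate 1, 2 and 3) nor without CT26 replicate 2 or 3 (0.0365 and 0.0382). It was also lost in the authors' table (0.025), with quantile normalization (0.0286), with no filter (0.0149) and with the slide as a block (0.0228). Without colon replicate 3 the difference was 2.34.

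Msln read 5.28, 5.59 and 6.13 in CT26 against 0.06, 0.23 and 0.49 in colon, a 42.5-fold difference (5.41, SE 0.32, adjusted p = 1.14e-05). No colon array came near the CT26 range, and without colon replicate 3 the difference was 5.52. Spp1 read 5.28, 5.54 and 5.46 in CT26, 7.87 above colon (SE 1.4, adjusted p = 0.0025), with colon above background on 2 of 3 arrays. It was 9.13 above without colon replicate 3 (SE 1.22, adjusted p = 0.000697). The Spp1 call was lost with any CT26 array left out (adjusted p = 0.0147, 0.0109 and 0.0109 without replicate 1, 2 and 3).

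Il33 read -3.29, -6.83 and -7.33 in CT26, above background on replicate 1 only, against -0.57, -2.13 and 0.53 in colon. Its difference was -5.09 (SE 1.11, adjusted p = 0.0064), and it was not called without colon replicate 1 (adjusted p = 0.0193) or 3 (-4.46, adjusted p = 0.0147), nor without CT26 replicate 2 or 3 (0.0262 and 0.0244). In the authors' table it was -2.38 (adjusted p = 0.0151), and the call was lost with quantile normalization (0.0135) and the slide as a block (0.0172). Clu was lower in CT26 by 1.77 without overlap (log2 fold change -1.77, SE 0.46, adjusted p = 0.0142), short of the threshold, and called in the authors' table (-2.1, adjusted p = 0.00651) and with quantile normalization (-2.22, adjusted p = 0.00598). It was -1.58 without colon replicate 3. Ly6a spread widely in CT26, at 0.4, 3.87 and 2.17, and its difference of -1.92 had an interval of -3.77 to -0.08 (adjusted p = 0.076), and it was -1.98 without colon replicate 3.

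Anxa1 was close together in CT26, at 6.92, 7.41 and 6.97, and 3.32 above colon (SE 1.15, adjusted p = 0.0431). Without colon replicate 3 the difference was 1.78 (SE 0.3, adjusted p = 0.0021), smaller but called. In that fit 5 members were called higher, with 20.5% of 31822 probes, and 0 lower, with 18.5%. By name they were Anxa1, Spp1, Cyr61, Ankrd1 and Msln.

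Whether a gene changed to the same extent in adenoma against small intestine as in CT26 against colon was tested as a difference of differences over those 12 arrays. It was called for 6 of the 9 genes, 3 in each direction, where 14.2% of 31930 probes were called higher in the adenoma contrast and 16% lower. Higher in the adenoma contrast were Ly6a by 4.07 (SE 0.93, adjusted p = 0.00434), Clu by 7.74 (SE 0.72, adjusted p = 8.2e-06) and Il33 by 8.53 (SE 1.54, adjusted p = 0.00102). For Ly6a the means of adenoma (2.19) and CT26 (2.15) were close, while those of the reference tissues were 0.05 in small intestine and 4.07 in colon. Higher in the CT26 contrast were Cyr61 (-4.3, SE 0.64, adjusted p = 0.000297), Ankrd1 (-7.9, SE 1.5, adjusted p = 0.00146) and Msln (-4.59, SE 0.93, adjusted p = 0.00221). Ankrd1 entered this test only through CT26: it was above background on 0 of 3 small intestine, 1 of 3 adenoma and 1 of 3 colon arrays, so the size of its difference is set by dim signals. Il33 was above background on 1 of 3 CT26 arrays, so the size of its difference also rests on dim signals. Its CT26 minus colon value was -5.09, but -2.38 in the authors' table.

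For Anxa1, Spp1 and Ctgf the contrasts did not differ by the test. Their differences were 1.08 (95% interval -1.97 to 4.14), -1.05 (-4.82 to 2.72) and -0.93 (-2.81 to 0.95), wide enough to hold unequal changes of several fold. Leaving out colon replicate 3, 7 genes were called, 4 higher with 16.3% of 33133 probes and 3 lower with 18.9%. The added gene was Anxa1, at 2.62 (SE 0.52, adjusted p = 0.00182). The others were Ly6a (4.13), Clu (7.55), Il33 (7.91), Cyr61 (-4.38), Ankrd1 (-7.43) and Msln (-4.71), while Spp1 stood at -2.31 (adjusted p = 0.207) and Ctgf at -0.36 (adjusted p = 0.712).

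**Figure D3:**
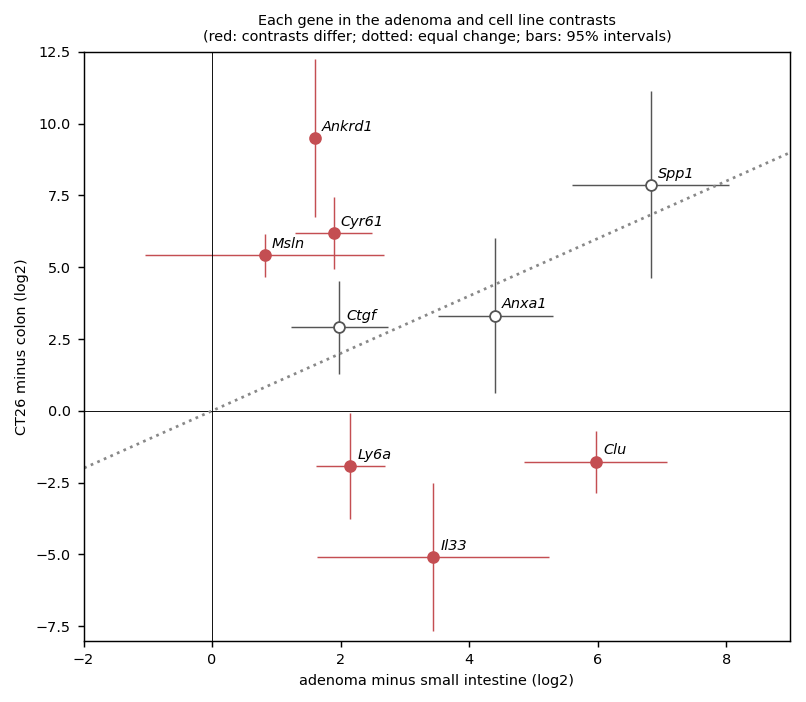
Log2 difference of adenoma minus small intestine (x axis) against CT26 minus colon (y axis) for each gene, with 95% intervals as bars, red where the contrasts differ by the test, and a dotted line of equal change. Ankrd1 has no horizontal bar because it was not tested in adenoma, and its x value comes from signals mostly not above background. Clu, Ly6a and Il33 lie to the right below 0, Ankrd1, Cyr61 and Msln lie well above the line, and Spp1, Ctgf and Anxa1 lie near it.

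The arrays lay on 2 slides, each of which held every group. Within slides, all 14 values of the 7 genes called in adenoma against small intestine had the pooled direction, as did both values of Il33 against adjacent tissue and all 12 values of the 6 genes called in CT26. This had to follow, because the compared groups did not overlap for any of these genes. It therefore does not test for a slide effect. With the slide as a block, however, Il33 was no longer called in any of these comparisons, nor Ctgf in CT26 against colon.

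The wider YAP and TAZ programme was read from 22 other target genes. Against small intestine, 6 were higher in adenoma and 3 lower, where 10.9% of probes tested were called in each direction. The median of the targets was 0.94, against -0.43 over all probes on the array and -0.15 over those tested. Higher were F3 (tissue factor, 3.56), Igfbp3 (2.8), Rbms3 (2.33), Areg (amphiregulin, an EGFR ligand, 2.29), Myof (2.14) and Birc5 (1.48), the last also a gene of dividing cells. Lower were Nuak2 (-3.13), Gadd45a (-1.66) and Crim1 (-1.61). In CT26 against colon 8 targets were higher and 5 lower, where 21.5% and 14.9% of probes tested were. The median was 1.17, against -0.25 over all probes and 0.37 over those tested. The highest targets were Axl, a receptor tyrosine kinase (6.02), Gadd45a (3.28), Lats2 (3.26), Asap1 (3.2) and Myof (3.11). Nt5e was at least 107-fold lower, Foxf2 at least 17.8-fold and Fjx1 at least 8.95-fold, and Rbms3 (-3.68) and Nuak2 (-3.14) were also lower. Without colon replicate 3, 9 were higher and 7 lower, where 20.5% and 18.5% of probes tested were. The median was then 0.6, against 0.12 over all probes and 0.33 over those tested. The targets thus moved in both directions in each contrast. The same shares of probes tested apply to the counts of the lists below in these contrasts. A fold given as at least marks a gene above background on no array of the lower group. Such a gene passed the filter only through the group where it was high, so it had to differ to be tested. These genes are included in the counts, and their bounds hold on this scale only.

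Of 17 Hippo pathway components, 15 were on the array. In adenoma 5 were higher and 0 lower than in small intestine: the DNA-binding partners Tead2 (4.03), Tead4 (3.38) and Tead1 (1.62), the TEAD cofactor Vgll4 (2.94) and the angiomotin relative Amotl1, at least 3.43-fold. Their median was 0.41. The co-activators did not pass, with Yap1 at 0.41 (adjusted p = 0.0833) and Wwtr1 (TAZ) at 1.55 (adjusted p = 0.013). Against adjacent tissue Tead2 (2.14), Tead4 (2.48) and Vgll4 (2.03) were called higher, where 2.27% of probes tested were. No probe at all was called in that comparison without adenoma replicate 2, which limits the adjacent tissue calls of the lists below too. In CT26 against colon 9 were higher and 0 lower with a median of 1.5, led by Amotl1 (4.5), Tead2 (4.03), Wwtr1 (3.77), Tead4 (3.64) and the kinase Lats2 (3.26), which is a YAP target too. The counts were 9 and 0 without colon replicate 3, with a median of 1.83.

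Among 14 other fetal and regenerative epithelial genes, 11 were higher and 0 lower in adenoma against small intestine, with a median of 2.5. Among the largest differences were Anxa10 (10), Il1rn, the interleukin-1 receptor antagonist (at least 6.81-fold), Plaur, the urokinase receptor (3.4), and Krt7 (2.95). Against adjacent tissue 7 of the 14 were higher and 0 lower, where 2.27% and 1.71% of probes tested were. The median of the list was 1.83 there, against -0.31 over all probes and -0.05 over those tested. In CT26 against colon 4 were higher and 1 lower, with a median of 0.86. Tnfrsf12a (the TWEAK receptor, 6.16), Plaur (5.24), the gap junction gene Gja1 (3.9) and Anxa5 (3.56) were higher and Krt7 (-5.86) lower. In the fit without colon replicate 3, 5 were higher and 2 lower, with a median of 0.62.

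Receptors and partners of the members were partly higher in adenoma as well. Of 11 such genes 4 were higher and 1 lower, with a median of 0.95. Il1rl1, which encodes the interleukin-33 receptor ST2, was higher by 4.74 (adjusted p = 0.00014) and Cd44, an osteopontin receptor, by 3.28. The clusterin receptor gene Lrp8 was at least 8.57-fold higher and Itgb3 higher by 1.96. Muc16, the mesothelin partner, was lower (-3.59). Against adjacent tissue, with the same adenoma arrays, Il1rl1 (2.42) and Cd44 (2.24) were called higher, where 2.27% of probes tested were. In CT26 against colon Il1rl1 was higher by 7.23, where Il33 fell, and Itgb5 by 1.61, while Itgb3 was at least 45.4-fold and Muc16 at least 8.62-fold lower. Of the 9 tested, 2 were thus higher and 2 lower, where 21.5% and 14.9% of all probes tested were. Without colon replicate 3, 2 were higher and 2 lower, where 20.5% and 18.5% of probes tested were.

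Near relatives of the members gave a mixed picture. Of 20 listed, 19 were on the array, and in adenoma against small intestine 8 were higher and 1 lower with a median of 1.59. Ly6d (5.02), the cytokine Il1b (4.51), Ly6e (2.75) and Anxa3 (2.71) were the most raised, together with Wisp2, at least 1.49-fold. Anxa4 was lower (-1.76). In CT26 against colon Anxa5 (3.56) and Ly6e (2.52) were higher, and 4 were lower: Il18 and Ly6d, at least 560-fold and 115-fold, Anxa6 (-6.05) and Anxa4 (-1.92). Of the relatives 13 were tested there, and 21.5% of all probes tested were higher and 14.9% lower. No gene of the 5 lists was called in adjacent tissue against small intestine or, over all arrays, in colon against small intestine. With colon replicate 3 left out, 3 relatives were higher and 6 lower in CT26, and in colon against small intestine 3 targets, 1 fetal gene and 4 relatives were higher and 1 target and 1 relative lower. Of all probes tested in those fits, 20.5% were higher and 18.5% lower in CT26, and 3.28% were higher in colon. The counts lower in colon are given without a share of all probes beside them. Anxa2, Anxa3 and Anxa5 are counted both as fetal genes and as relatives, and Lats2 both as a target and as a Hippo component.

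**Figure D4:**
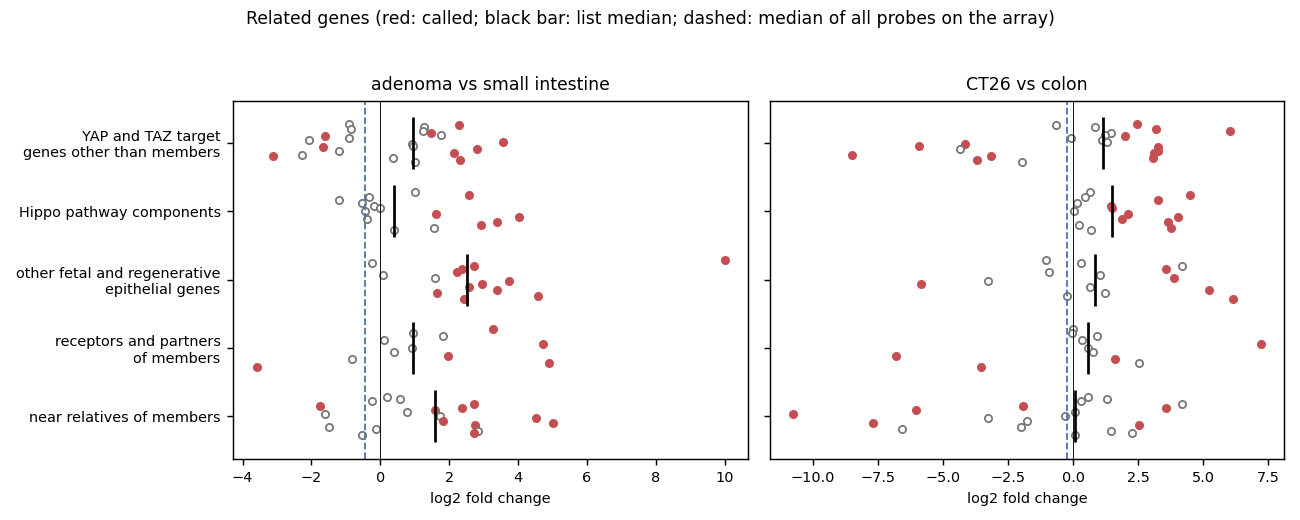
Log2 fold change (x axis) of each gene of the 5 related lists (y axis) in adenoma against small intestine and in CT26 against colon, with red points called, a black bar at the list median and a dashed line at the median of all probes on the array (-0.43 and -0.25). The list of other fetal and regenerative genes lies furthest to the right in adenoma (median 2.5). Over the probes tested, the medians were -0.15 in adenoma against small intestine and 0.37 in CT26 against colon.

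Markers of several cell types differed along with these genes. Adenoma had higher fibroblast markers than small intestine, with a median of 3.47 to 3.55 against 0.08 to 1.8 and 3 of 7 called. Neutrophil markers stood at -1.01 to -0.75 against -6.23 to -5.89 (3 of 5 called) and endothelial markers at -0.27 to 0.61 against -2.86 to -2.33 (4 of 6 called). Enterocyte markers were lower, at 4.75 to 5.65 against 5.78 to 8.81 (5 of 10 called). Epithelial markers stood at 5.77 to 6.21 against 6.96 to 7.37 (3 of 8 called lower) and T cell markers at -2.35 to -1.92 against -0.78 to 0.22 (2 of 4 called lower), while 1 of 7 macrophage markers was higher. As the log2 of the summed marker signal, the ranges in adenoma and small intestine were 6.49 to 6.71 and 3.72 to 6.14 for fibroblasts, 5.53 to 5.75 and 4.9 to 5.72 for neutrophils and 4.03 to 4.35 and 3.54 to 4.05 for endothelium, with overlap for neutrophils and endothelium. Against adjacent tissue, 3 of 5 neutrophil markers and 1 of 7 fibroblast markers were higher in adenoma. The part of these cells in the member values was not tested.

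In CT26, all 8 epithelial, 7 smooth muscle and 4 B cell markers were lower than in colon. The fibroblast markers summed to 7.75 to 8.29 in the line and 5.14 to 6.28 in colon, with 5 of 7 above background on each CT26 array, 1 called higher and 3 lower. The part of these differences in the member values was not tested.

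**Figure D5:**
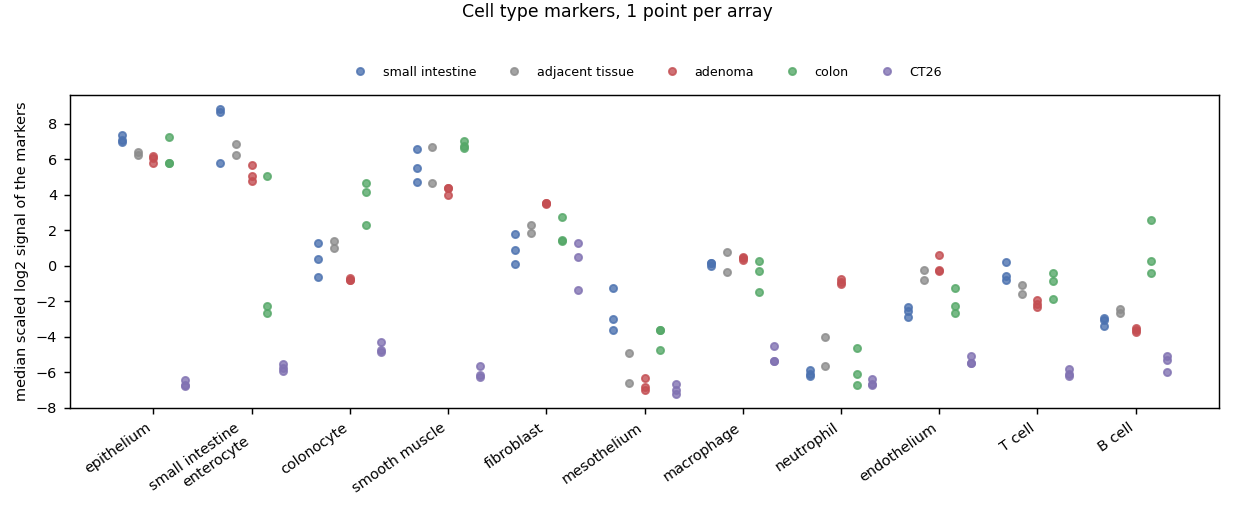
Median scaled log2 signal (y axis) of the markers of 11 cell types (x axis), with 1 point per array in the colour of its group. Adenoma lies above small intestine for fibroblast, neutrophil and endothelial markers, and CT26 lies between -6.75 and -6.43 for epithelium.

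Across the 14 arrays the members fell into patterns that follow the groups they were high in. Cyr61 ran with Ankrd1 (Pearson r = 0.963), Msln (0.908) and Spp1 (0.893), Ctgf with Anxa1 (0.894), and Clu with Il33 (0.708), while Il33 ran against Ankrd1 (-0.782). These values describe 5 groups more than 14 independent points, and the arrays of a group share their tissue. Those of Ankrd1 rest on CT26 against mostly dim signals, since outside CT26 it was above background on 1 adenoma and 1 colon array only. By the same measure over 32251 probes, the genes most like Clu were Stra6, Syt8 and Cxcl17 (0.983 to 0.954), and those most like Il33 were Aldh1a3, Wnt6 and 1110028F11Rik (0.965 to 0.955). Psat1, Dtnb and Mthfd2 were most like Cyr61 (0.993 each), Bcat1 most like Ankrd1 (0.993) and Crtap most like Ctgf (0.989). For Anxa1 they were Ttc21b, Etv4 and Wdr35 (0.975 to 0.971), for Spp1 Gm6653, Nin and Strap (0.956 to 0.952), and for Msln Scd3, Rpa3 and Gm10375 (0.961 to 0.94).

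Ly6a was most like 9030619P08Rik (0.986), Ly6c1 (0.981) and Lynx1 (0.902), all on chromosome 15 with Ly6a itself. The 60-base Ly6a probe shared no run of bases longer than 7 with the probes of these genes, and whether related transcripts bind it was not tested.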

How the data were processed

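RNA from 14 samples in 5 groups was labelled with Cy3 and hybridised to SurePrint G3 Mouse 8x60K arrays. The deposited scanner files hold spot intensity values made by the authors with Feature Extraction 10.7.3.1 (background-subtracted processed signal, probe positions in mm9), and they set the precision by number of arrays, not by depth. Spots of a probe were averaged, and log2 of the processed signal minus the array's 75th percentile was used. The authors' normalized table, deposited as log2 values with a method not given in the sources used here, was an alternative. Its fold changes and p-values were not used, nor were 28 per-sample columns of flags and detection calls. limma 3.58.1 in R 4.3.3 was fitted to the arrays of the compared groups, without blocks. Probes had to be well above background on every array of a group. Calls needed an absolute log2 fold change of 1.2 and a Benjamini-Hochberg p of 0.01, following the study's methods. The steps were tested on simulated data. Where a gene had several probes, the probe with the highest mean was used. All 9 members are named, and from each list up to 5 genes per direction called in adenoma against small intestine or CT26 against colon, by size. The values of 1 gene that this rule names are not reported here. Members and lists were chosen with earlier results of these data known. Replicate numbers did not pair the arrays (correlations of deviations from group means from -0.0982 to 0.289). Alternatives were other normalizations, filters, fits, blocks, an adjusted p of 0.05, and leaving out each array.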

Additional observations from a re-analysis of the deposited data

Results flagged for a closer look

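The adenoma contrast (adenoma minus small intestine) and the CT26 contrast (CT26 minus colon) differed for 6 genes by the test of their difference, on the log2 scale. The difference was 4.07 for Ly6a, 7.74 for Clu and 8.53 for Il33, higher in the adenoma contrast. It was -4.3 for Cyr61, -7.9 for Ankrd1 and -4.59 for Msln, higher in the CT26 contrast. For Ly6a the means of adenoma (2.19) and CT26 (2.15) were close, while small intestine stood at 0.05 and colon at 4.07. The sizes for Il33 (in CT26) and Ankrd1 (outside CT26) rest on signals mostly not above background. No group held more than 3 arrays, so single arrays were not tested as outliers.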

How the results depend on the processing

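The number of members called in adenoma against small intestine was 7, and 4 with all 14 arrays in the fit, where Ly6a (adjusted p = 0.0199), Ctgf (0.0208) and Il33 (0.023) were lost. It was 5 to 7 with 1 array left out. Against adjacent tissue, 1 member became 0 with no filter on dim probes, with all arrays in the fit, with the replicate block, with the title number as replicate block and with the slide as a block, 2 with normexp background and 3 at an adjusted p of 0.05. It was 0 to 2 with 1 array left out. Without adenoma replicate 2 no probe at all was called there, against 1182 in the fit as reported, 65 were without adenoma replicate 1, 27 without adenoma replicate 3 and 431 without adjacent replicate 1. Adjacent tissue against small intestine gave 0, or 1 (Clu, adjusted p = 0.00817) with all arrays in the fit. Colon against small intestine gave 0, 1 with all arrays in the fit or at an adjusted p of 0.05, and 0 to 2 with 1 array left out. CT26 against colon gave 6, 3 where probes had to be above background in every group (Spp1, Ankrd1 and Il33 then failed the filter), and 3 to 5 with 1 array left out. The difference of differences gave 5 to 7 with 1 array left out, and 4 to 6 otherwise. The replicate block gave 6, 0, 0, 0, 5 and 6 members in these comparisons, in this order, and the numbers did not pair the arrays. The calls it ended were Il33 in adenoma against small intestine (adjusted p = 0.0146) and against adjacent tissue (0.0223, and 0.077 with the title number) and Ctgf in CT26 (0.0108). Of 547 values of single members, 3 changed sign, all of Msln and none called: in adjacent tissue against small intestine (0.18 and 0.12, in a range of -1.57 to 0.18 with 1 array left out) and in colon against small intestine (0.14, in a range of -1.43 to 0.14). The cause was not tested. Over all probes, 6462 were called in adenoma against small intestine and 4189 to 7816 with 1 array left out. Against adjacent tissue the 1182 became 70 with no filter, 258 with all arrays, 104 with the replicate block, 0 with the title number, 212 with the slide block and 2748 at an adjusted p of 0.05. In adjacent tissue against small intestine the 2 became 181 with all arrays and 458 at an adjusted p of 0.05, and in colon against small intestine the 2 became 1043, 141 and, without colon replicate 3, 2120, with 0 to 5 and 0 to 10 under the other settings. In CT26 against colon the 10711 became 6470, and in the difference of differences the 9642 became 5166, where probes had to be above background in every group. Normexp moved the median over the probes tested in CT26 against colon from 0.37 to 0.12. The authors' table moved that of adenoma against small intestine from -0.15 to -0.04.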
